A study of Mus musculus with 8 samples.

Results

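The genes described here encode carriers that move amino acids, glutamate and related small molecules across the cell membrane. They were chosen by gene symbol, as the array probes whose symbol belongs to the solute carrier (Slc) families 1, 3, 6, 7, 36, 38 or 43, and 67 of the 25697 probes met this rule, carrying 49 of 18120 gene symbols. Expression had been measured on 8 Illumina MouseRef-8 v2 arrays with RNA from STHdh cells, a conditionally immortalized striatal progenitor line made from embryonic wild-type mice. In 4 samples the cells had been transfected with the pcDNA3.1 plasmid carrying the mouse Bcl11b cDNA, and in the other 4 with empty pcDNA3.1, called mock here. All samples shared the same line and transfection procedure, and RNA was taken 2 days later from 4 separately transfected sets of cells per group. The labels also name the control samples wild-type. The RNA came from whole cultures, so fewer expressing cells and less RNA per cell cannot be told apart.

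Cells take up amino acids through carriers of overlapping substrate range. The Slc1 family holds the sodium-driven glutamate carriers, which clear glutamate from synapses in the brain, and the neutral amino acid exchangers. The Slc7 light chains work as pairs with a heavy chain from the Slc3 family. The Slc6 family holds the carriers for glycine, GABA, monoamines, creatine and taurine, whereas the Slc36, Slc38 and Slc43 carriers move neutral amino acids at the plasma membrane or out of lysosomes.

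Each probe had an average bead signal with a detection p-value, and it was called detected on an array where that p-value was under 0.01. The median deposited signal lay between 31.6 and 53.9 on mock arrays and between 20.1 and 30.2 on Bcl11b arrays, so the mock arrays were brighter. The signals were therefore quantile-normalized and are given below as log2 signals. Bcl11b replicate 4 had the lowest correlation with the other arrays of its group (r = 0.935 across genes, which are not independent, against 0.987 to 0.988 for the remaining Bcl11b arrays and 0.962 to 0.978 for mock). No array detected the only probe for Bcl11b (ILMN_2611022), and the level of the transfected gene is thus unknown here. Of the medium spiny neuron markers, 8 of 10 were on the array and no array detected any of them, Ppp1r1b, Drd1a and Drd2 included. By PCR, however, the study found Ppp1r1b and Rgs9 expressed in this line. It also reports present calls on its arrays for most of its striatal-enriched genes, at a limit it does not state. Of 6 progenitor markers, Nes, Sox2 and Vim were detected, and Fabp7, Msi1 and Pax6 were not. Of 6 neuronal markers on the array, Map2 and Stmn2 were detected, and Nefl, Snap25, Syt1 and Tubb3 were not. Astrocyte, oligodendrocyte, microglia and endothelial markers were not detected, apart from Slc1a3, itself a carrier described below. Of 6 fibroblast markers, 4 were detected. The summed normalized signal of all 8 probes for the 6 markers ranged from 2321 to 4118 on mock and from 3081 to 4048 on Bcl11b arrays. The 4 detected markers did not move one way. Both probes of Dcn, which encodes the matrix proteoglycan decorin, were higher in Bcl11b-transfected cells (limma adjusted p = 0.0885 and 0.0492). The first (ILMN_2596346) was detected on 0 mock and 4 Bcl11b arrays, so its change is only a bound, of 1.26-fold. The second (ILMN_2747959) was detected on all 8 arrays. They passed the adjusted threshold in 7 and 9 of 17 alternatives, neither without normalization, with the replicate block or with limma-trend. The log2 fold change of the PDGF receptor gene Pdgfrb was -0.49 (limma adjusted p = 0.309, groups apart), that of the detected Col3a1 probe -0.87 (limma adjusted p = 0.572) and that of Col1a1 0.22 (limma adjusted p = 0.894). The part of such cells or genes in the results below was not tested.

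Most of the carriers were not detected in these cells. Of the 67 probes, 47 (70.1%) were detected on no array, 5 on 1 to 3 arrays, 2 on 4 arrays and 13 (19.4%) on all 8. Over all probes of the array, 54.3% were detected on no array and 36.4% on all 8. Among the glutamate carriers of the Slc1 family, the probes for Slc1a1 (neuronal EAAC1), Slc1a2 (glial GLT-1), Slc1a6 and Slc1a7 were not detected on any array. Slc1a3, the glial glutamate carrier GLAST, was detected on 3 mock arrays and 1 Bcl11b array. Of the neurotransmitter carriers of the Slc6 family, 7 of 8 genes were not detected. Among these were the GABA carrier Slc6a13, the betaine and GABA carrier Slc6a12, the monoamine carriers Slc6a2, Slc6a3 and Slc6a4, and the neuronal glycine carrier Slc6a5. Slc6a9, which encodes the glycine carrier GlyT1, was detected on all 8 arrays.

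**Figure D1:**
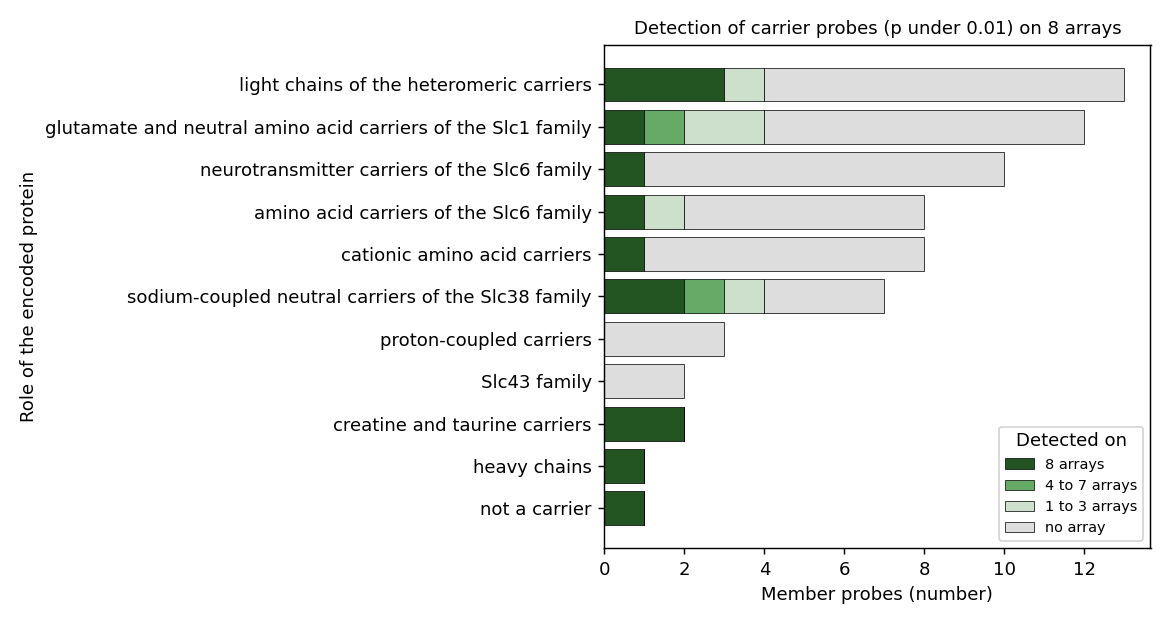
Number of carrier probes (horizontal axis) in each functional group (vertical axis), colored by the number of arrays on which they were detected at a p-value under 0.01. Of 67 probes, 47 were detected on no array, and both probes of the creatine and taurine carriers were detected on all 8.

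The remaining groups followed the same division. Of the Slc7 light chains, Slc7a5 (LAT1), Slc7a6 and Slc7a11 (the cystine and glutamate exchanger xCT) were detected on all arrays, Slc7a7 on 1 array of each group, and Slc7a8, Slc7a9, Slc7a10, Slc7a12 and Slc7a13 on none. The only heavy chain probe was that of Slc3a2, the CD98 heavy chain, and it was detected on all arrays. Among the cationic amino acid carriers Slc7a3 was detected on all arrays with 1 of its 2 probes, while Slc7a1, Slc7a2 and Slc7a4 were not detected. The glutamine carrier Slc38a2 was detected on all arrays with 2 of its 3 probes, Slc38a4 on 1 mock and 3 Bcl11b arrays, Slc38a1 on 1 array of each group, and Slc38a3 and Slc38a5 on none. The neutral amino acid exchanger Slc1a4 was detected on all arrays. Its relative Slc1a5, the glutamine carrier ASCT2, was detected on 2 arrays with its first probe (ILMN_1252970) and on 1 with its second (ILMN_2593148). The Slc6 amino acid carrier Slc6a17, the taurine carrier Slc6a6 and the creatine carrier Slc6a8 were detected on all arrays, and Slc6a18 on 1. Slc6a7, Slc6a14, Slc6a15, Slc6a19, Slc6a20, Slc36a1, Slc36a2, Slc36a3, Slc43a2 and Slc43a3 were not detected. The rule also took in Slc7a6os, a neighbor of Slc7a6 on the opposite strand that encodes no carrier, and it was detected on all arrays.

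Whether Bcl11b transfection changed these carriers was tested with limma over all 25697 probes. At an adjusted p-value under 0.10, 1 of the 67 probes differed between the groups, that of Slc6a9, which was lower in Bcl11b-transfected cells. Over all probes this threshold called 0.981%, with 0.627% lower and 0.354% higher. Among the probes detected on all 8 arrays it called 1 of 13 carrier probes, against 1.57% of all such probes, 1.27% lower and 0.299% higher. A less strict, unadjusted threshold, a p-value under 0.05 with one group at least 25% above the other, called 6 of the 67 probes, 4 lower and 2 higher. Over all probes it called 9.02%, with 5.81% lower and 3.2% higher. Of these 6, the detected ones were Slc6a9, Slc7a11 and Slc6a8, all lower, which is 3 of 13 against 14.3% of all probes detected on all arrays (10.5% lower and 3.8% higher). The other 3, for Slc1a2 (ILMN_3047516), Slc7a4 and Slc7a8 (ILMN_2780392), were not detected on any array, so no change is given for them. The groups were fully apart, with each Bcl11b value below each mock value, for 2 of the 13 probes, Slc6a9 and Slc7a11, where 7.38% of all probes detected on all arrays were apart in this direction and 2.5% in the other. Over the 67 probes these 2 and, in the higher direction, the undetected Slc1a2 probe were apart, against 3.78% and 2.05% of all probes. Thus the number of carriers called was of the size of the background. The median log2 fold change of the 13 probes was -0.27, with 11 of them lower. For all probes detected on all arrays it was -0.026, with 4996 of 9360 lower. Without Slc7a6os, which encodes no carrier, 10 of 12 probes were lower. Over all 67 probes the median was 0, because 16 had signals at or below the lower limit on every array. With each array divided by its median instead of quantile normalization, no carrier probe passed the adjusted threshold. The less strict threshold then called 5, 3 lower and 2 higher. This setting also turned the adjusted calls over all probes from 161 lower and 91 higher to 46 lower and 100 higher.

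**Figure D2:**
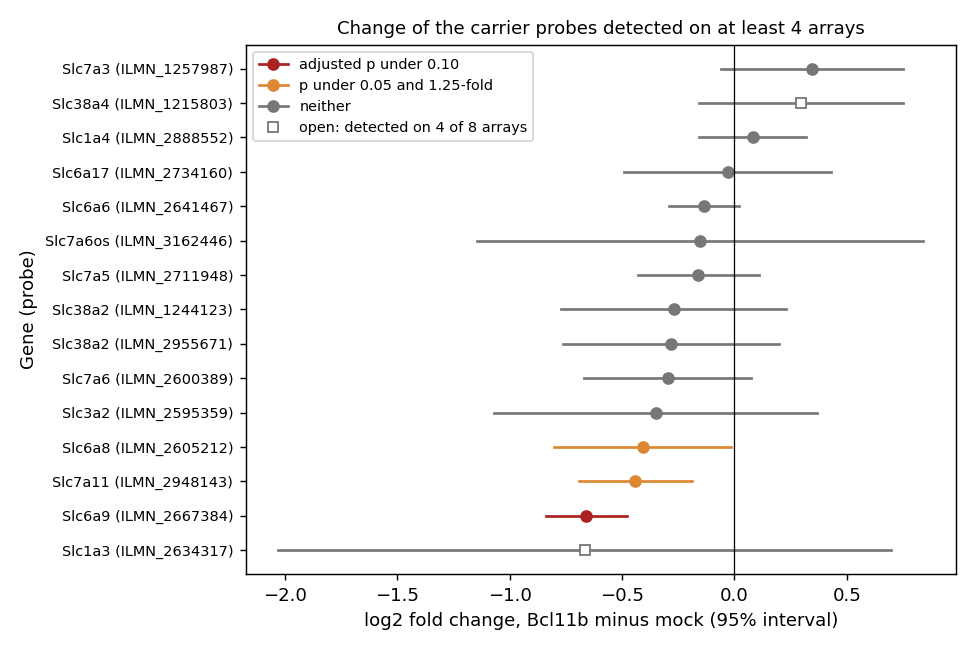
Log2 fold change (horizontal axis, Bcl11b minus mock) with its 95% interval from limma for each carrier probe detected on at least 4 arrays (vertical axis). Slc6a9 at -0.66 passed the adjusted threshold, Slc7a11 at -0.44 and Slc6a8 at -0.41 passed the unadjusted threshold, and the intervals of the 12 remaining probes include 0.

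Slc6a9 takes up glycine, the amino acid that serves as transmitter, co-agonist of NMDA receptors and building block of glutathione. The log2 signals of its probe (ILMN_2667384) were 10.36, 10.32, 10.56 and 10.59 on mock arrays 1 to 4, and 9.75, 9.77, 9.79 and 9.89 on Bcl11b arrays 1 to 4. The highest Bcl11b value thus lay below the lowest mock value, and the Bcl11b arrays lay close together. The means were 10.46 ± 0.14 (SD, n = 4 arrays) in mock cells and 9.80 ± 0.064 (SD, n = 4) after Bcl11b transfection. The log2 fold change was -0.66 (standard error 0.074, limma adjusted p = 0.0325), or 0.634-fold. The groups were also apart in the deposited signals, which ran from 1078 to 2035 on mock and from 503 to 848 on Bcl11b arrays. The mock arrays were brighter as a whole, and the deposited signals of Slc6a8, Slc7a6 and both detected Slc38a2 probes were apart too. Separation in the deposited signals is thus no further support for a change. The direction held under all 17 alternative settings, with log2 fold changes from -1.34 without normalization between arrays to -0.59 with division by the array median. Of the -1.34, -0.85 remains relative to the median of all probes. The adjusted threshold was passed in 10 of the 17, with adjusted p-values from limma between 0.0108 and 0.138. It was missed without Bcl11b replicate 1 (limma adjusted p = 0.124), replicate 2 (0.118) or replicate 3 (0.112), without normalization (0.125), with division by the median (0.131), with limma-trend (0.138) and with the replicate number as a block (0.124).

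Slc7a11 forms, with the Slc3a2 heavy chain, the exchanger that brings in cystine for glutathione synthesis and releases glutamate. Its probe (ILMN_2948143) had log2 signals of 8.45, 8.46, 8.37 and 8.73 on mock arrays 1 to 4, and of 8.12, 7.86, 8.07 and 8.20 on Bcl11b arrays 1 to 4. The groups did not overlap, and the gap between the lowest mock and the highest Bcl11b array was smaller than for Slc6a9. The means were 8.50 ± 0.16 (SD, n = 4 arrays) and 8.06 ± 0.15 (SD, n = 4). The log2 fold change was -0.44 (standard error 0.10), or 0.737-fold, with a 95% interval from -0.69 to -0.19. It did not pass the adjusted threshold (limma adjusted p = 0.199). An unadjusted p-value under 0.05 was reached in all 17 alternatives and the adjusted threshold in 0 of them, with adjusted p-values from limma between 0.120 and 0.441. The heavy chain Slc3a2 (ILMN_2595359) had log2 signals of 8.90, 8.33, 8.47 and 9.02 on mock and 8.70, 8.81, 8.09 and 7.72 on Bcl11b arrays. Its groups overlapped, and the log2 fold change of -0.35 had a 95% interval from -1.07 to 0.37.

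**Figure D3:**
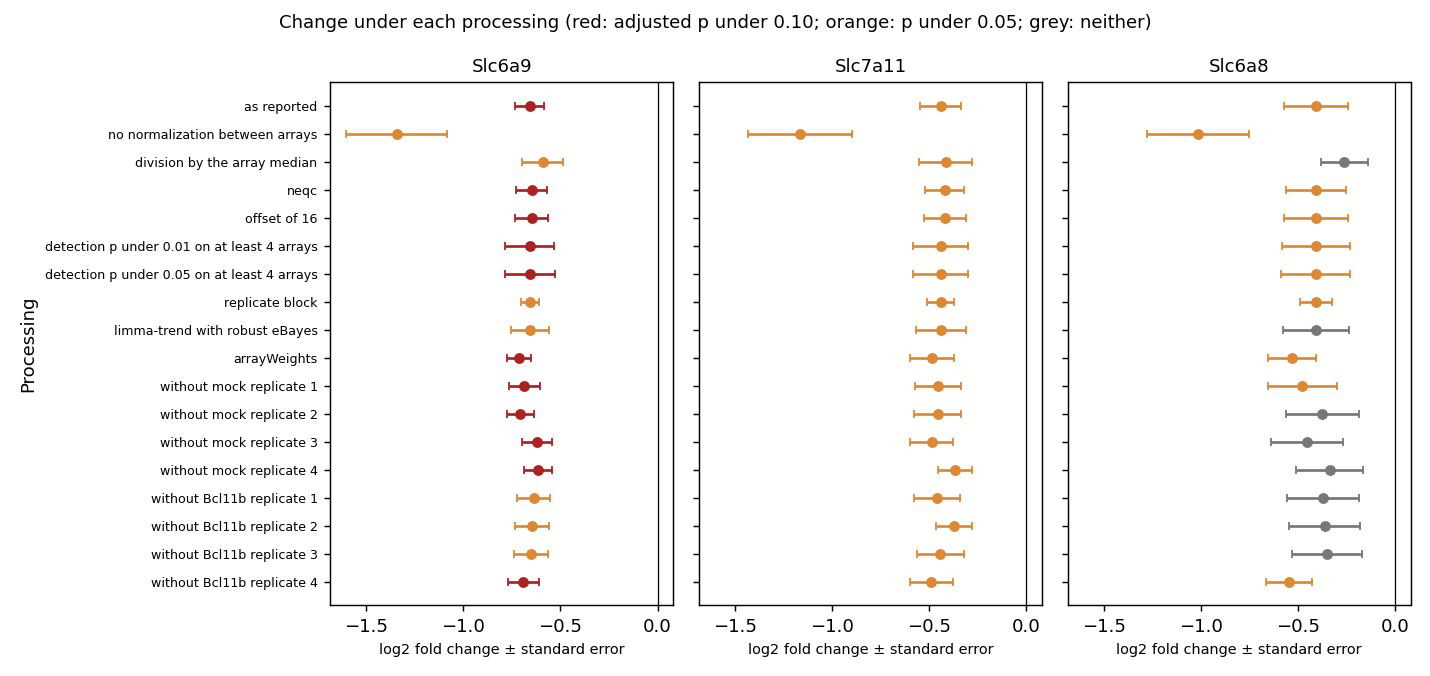
Log2 fold change (horizontal axis, Bcl11b minus mock, with standard error) of Slc6a9, Slc7a11 and Slc6a8 as reported and under each of 17 alternative settings (vertical axis). All values lie below 0. Slc6a9 passed the adjusted threshold in 10 of the alternatives, and Slc6a8 had an unadjusted p-value under 0.05 in 9.

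The promoters of Slc7a11 and Slc6a9 are shown because their groups of arrays were apart, and because Slc7a11 is a known target of the amino acid response factor ATF4 and of the antioxidant response factor NRF2. RefSeq (GRCm38.p6) promoter windows, from 250 bases before to 50 after the transcription start, were at hand for 30 of the 49 carrier symbols and for 10 of the 14 symbols detected on at least 4 arrays. Both strands of each window were searched for TGATGNAA, the core of the amino acid response element bound by ATF4, and for TGACNNNGC, the core of the antioxidant response element bound by NRF2. The 250 bases before each start are given 5' to 3' on the strand of the gene, with matches in capitals, none of which overlap. The build of the array's probe design is not given in the sources used here, and which of the 3 Slc6a9 starts its probe reports on cannot be read from the files.
Slc7a11, chr3:50443614-50443863, minus strand: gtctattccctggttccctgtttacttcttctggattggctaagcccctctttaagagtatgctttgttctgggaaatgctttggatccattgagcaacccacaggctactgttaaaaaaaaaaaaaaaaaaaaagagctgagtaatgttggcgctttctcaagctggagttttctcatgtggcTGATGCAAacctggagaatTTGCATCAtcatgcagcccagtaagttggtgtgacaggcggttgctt
Slc6a9, chr4:117835008-117835257, plus strand: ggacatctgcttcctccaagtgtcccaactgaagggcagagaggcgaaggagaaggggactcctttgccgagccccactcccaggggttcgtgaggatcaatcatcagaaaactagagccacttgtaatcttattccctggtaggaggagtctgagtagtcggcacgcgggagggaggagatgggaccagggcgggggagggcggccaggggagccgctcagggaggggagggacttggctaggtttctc
Slc6a9, chr4:117849100-117849349, plus strand: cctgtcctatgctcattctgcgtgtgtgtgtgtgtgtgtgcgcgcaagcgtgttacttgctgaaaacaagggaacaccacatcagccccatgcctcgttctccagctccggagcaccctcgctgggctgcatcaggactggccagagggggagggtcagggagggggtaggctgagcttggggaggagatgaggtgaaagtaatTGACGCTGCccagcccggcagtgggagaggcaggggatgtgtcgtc
Slc6a9, chr4:117855297-117855546, plus strand: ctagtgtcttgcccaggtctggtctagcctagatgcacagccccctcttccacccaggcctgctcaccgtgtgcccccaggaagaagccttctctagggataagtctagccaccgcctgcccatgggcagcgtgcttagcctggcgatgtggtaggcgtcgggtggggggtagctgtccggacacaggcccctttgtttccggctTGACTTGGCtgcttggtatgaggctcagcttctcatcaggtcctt

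The Slc7a11 window held 2 matches to TGATGNAA, at -66 to -59 on the strand of the gene and at -47 to -40 on the opposite strand, counted from the transcription start. Of all 32851 promoter windows, 3.97% held this motif and 0.07% held it at least 2 times. Of the other detected carriers with a window, Slc1a4 had 1 match, on the opposite strand from -4 to 4, across its start. No TGATGNAA was found in the 3 Slc6a9 windows. TGACNNNGC was not found in the Slc7a11 window. Both downstream Slc6a9 starts had 1 match to TGACNNNGC, at -46 to -38 and at -45 to -37, and so had Slc38a2 and both starts of Slc7a6. The Slc7a6 windows overlap, and their match is the same site. TGACNNNGC was present in 12.4% of all windows. A match describes the letters only.

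Slc6a8 imports creatine, and Slc6a6 imports taurine. The Slc6a8 probe (ILMN_2605212) had log2 signals of 11.81, 12.11, 11.87 and 12.24 on mock arrays 1 to 4 and of 11.49, 11.47, 11.43 and 12.003 on Bcl11b arrays 1 to 4. Bcl11b replicate 4 lay within the mock range and the other Bcl11b arrays lay below it. The log2 fold change was -0.41 (standard error 0.16, limma adjusted p = 0.462), and it passed the unadjusted threshold only. That threshold was missed without mock replicate 2, 3 or 4 or Bcl11b replicate 1, 2 or 3, with division by the array median and with limma-trend. Without Bcl11b replicate 4 the change was -0.54 (limma adjusted p = 0.173). For Slc6a6 (ILMN_2641467) the log2 signals were 13.35, 13.29, 13.44 and 13.40 on mock and 13.27, 13.37, 13.23 and 13.08 on Bcl11b arrays. The groups overlapped, and the log2 fold change of -0.13 (95% interval from -0.29 to 0.022) turned to 0.24 with division by the array median.

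The large neutral amino acid carrier Slc7a5 (ILMN_2711948) brings leucine into the cell as a partner of Slc3a2. It had log2 signals of 12.93, 12.99, 13.21 and 13.19 on mock arrays and of 12.79, 12.84, 12.86 and 13.19 on Bcl11b arrays. Replicate 4 was again the highest Bcl11b array and lay within the mock range. The log2 fold change was -0.16 (95% interval from -0.43 to 0.11), and it turned to 0.16 with division by the array median. Slc7a6, which exchanges cationic for neutral amino acids, had a log2 fold change of -0.30 (limma adjusted p = 0.618), with mock signals from 8.89 to 9.60 and Bcl11b signals from 8.82 to 9.10. Its opposite-strand neighbor Slc7a6os varied more within the groups, from 7.64 to 8.90 on mock and from 7.13 to 8.62 on Bcl11b arrays, and its log2 fold change was -0.15. The cationic carrier Slc7a3 (ILMN_1257987) was among the few with a higher mean in Bcl11b-transfected cells, with mock signals of 7.49, 7.07, 7.74 and 7.63 and Bcl11b signals of 8.004, 7.77, 7.58 and 7.95. These groups overlapped, and the log2 fold change was 0.34 (standard error 0.17, limma adjusted p = 0.581).

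The glutamine carrier Slc38a2, which is raised in many cells when amino acids are scarce, was read by 2 bright probes. The first (ILMN_2955671) had log2 signals of 12.30, 12.61, 12.21 and 12.86 on mock and of 12.36, 12.44, 11.80 and 12.24 on Bcl11b arrays. The second (ILMN_1244123) had 12.23, 12.39, 12.18 and 11.80 on mock and 12.03, 12.30, 11.61 and 11.59 on Bcl11b arrays. The groups overlapped for both, and the log2 fold changes were -0.28 (limma adjusted p = 0.756) and -0.27 (limma adjusted p = 0.800). A further Slc38a2 probe (ILMN_2721692) was not detected on any array. Slc1a4, a carrier of alanine, serine and cysteine, had mock signals from 9.70 to 9.96 and Bcl11b signals from 9.82 to 10.18. Its log2 fold change was 0.082, and the 95% interval from -0.16 to 0.32 bounds the change that these arrays leave possible. Slc6a17, a vesicular carrier of neutral amino acids in neurons, had a log2 fold change of -0.030 (95% interval from -0.49 to 0.43).

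Of the carriers near the detection limit, Slc1a3 gave the widest interval of all described probes. The log2 signals of Slc1a3 were 7.47, 5.49, 6.40 and 6.22 on mock arrays and 5.74, 6.57, 6.02 and 4.59 on Bcl11b arrays. The groups overlapped, and the log2 fold change of -0.67 had a 95% interval from -2.03 to 0.70. For Slc38a4 the log2 fold change was 0.30 (95% interval from -0.16 to 0.75, limma adjusted p = 0.709). Its mock signals ran from 5.78 to 6.54 and its Bcl11b signals from 6.17 to 6.63. The 5 probes of Slc1a5, Slc38a1, Slc6a18 and Slc7a7 that were detected on 1 or 2 arrays had limma adjusted p-values from 0.802 to 1. Slc6a18 and the second Slc1a5 probe were detected on a Bcl11b array only, and neither gave a bound above 1-fold against the dimmest detected signals of the mock arrays.

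**Figure D4:**
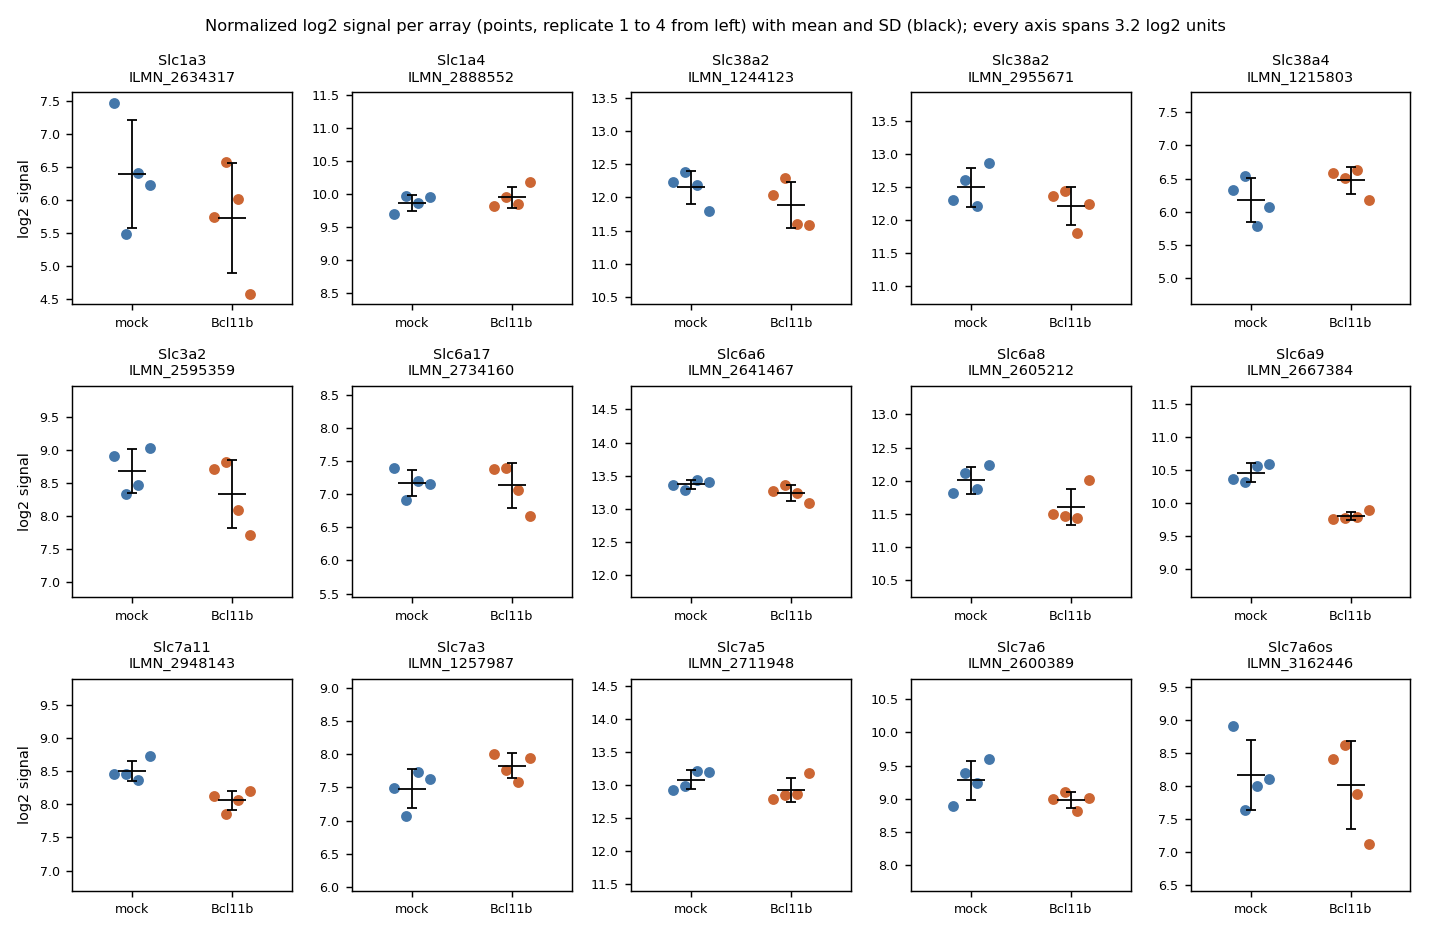
Normalized log2 signal (vertical axis, each spanning 3.2 log2 units) of the 15 carrier probes detected on at least 4 arrays, for mock (blue) and Bcl11b (orange) arrays, with replicates 1 to 4 from left to right and the group mean and SD in black. For Slc6a9 and Slc7a11 the groups are apart, and for the remaining probes they overlap.

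Within the groups, Bcl11b replicate 4 departed most often from the other arrays. It was the lowest Bcl11b array for 7 of the 15 probes detected on at least 4 arrays, among them Slc3a2, Slc7a6os and Slc6a17, and the highest for 5, among them Slc6a8, Slc6a9, Slc7a5 and Slc7a11. On the mock side, replicate 2 was the lowest for 7 and replicate 4 the highest for 6.

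Other genes of amino acid handling were examined in 4 lists. The lists held 69 genes, of which 66 were matched to 94 probes, and 3 probes passed the adjusted threshold, 1 lower and 2 higher. Over all probes 0.981% passed it, and 1.57% of those detected on all arrays. In the list of amino acid synthesis and amino acid response genes, 26 of 28 probes were detected on all arrays, with 1 lower and 1 higher. Atf3, a stress-induced transcription factor, had log2 signals of 8.25, 8.47, 7.91 and 8.05 on mock and 9.67, 9.44, 9.78 and 9.67 on Bcl11b arrays. It rose in Bcl11b-transfected cells, and the log2 fold change was 1.47 (standard error 0.14, limma adjusted p = 0.0196). Without normalization, or with the replicate number as a block, it missed the threshold. Chac1 (listed as 1810008K03Rik), which degrades glutathione, had 11.96, 11.73, 11.81 and 11.77 on mock and 11.50, 11.20, 11.34 and 11.27 on Bcl11b arrays. The log2 fold change was -0.49 (standard error 0.081, limma adjusted p = 0.0841), and the adjusted threshold was passed in 4 of 17 alternatives. The 3 probes of the asparagine synthetase Asns had log2 fold changes from 0.0064 to 0.19, and the 2 probes of Atf4 -0.023 and 0.13. The log2 fold changes of the serine synthesis enzymes Phgdh and Psat1 were 0.19 and -0.25. None of these probes passed a threshold. For Ddit3, which encodes the stress-induced factor CHOP, the log2 fold changes were 0.90 (ILMN_2652909, limma adjusted p = 0.447) and 0.75 (ILMN_2927373, limma adjusted p = 0.663). The groups overlapped, and only the first of these passed the less strict threshold.

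In the list of glutamate, glutamine and glutathione enzymes, 0 of 22 probes passed the adjusted threshold. The smallest p-values among the detected probes belonged to Gpt2, the mitochondrial alanine aminotransferase, at -0.41 on the log2 scale (standard error 0.091, limma adjusted p = 0.184), and to a probe of the glutathione synthetase Gss (ILMN_2818895), with 0.28 (limma adjusted p = 0.409). For Gpt2 the groups were apart. The less strict threshold called 2 of the 14 probes detected on at least 4 arrays, both lower, and 0 higher, so Gss was not among them. Of all probes detected on all arrays it called 10.5% lower and 3.8% higher. The log2 fold change of Gpt1, another alanine aminotransferase, lay between -1.28 and -0.45 in the 17 alternatives. Its unadjusted p-value from limma was under 0.05 in 11 of them. The glutamate cysteine ligase subunits Gclc and Gclm had log2 fold changes of -0.54 and 0.038. In the list of vesicular and lysosomal carriers, 1 of 16 probes passed. It was that of the vesicular glutamate carrier Slc17a8, which 0 mock and 3 Bcl11b arrays detected, and its signal was at least 1.15-fold higher after Bcl11b transfection (limma adjusted p = 0.0622). This call was kept in 7 of 16 alternatives. It was lost without normalization, with the replicate block, with limma-trend, and without mock replicate 1, 3 or 4 or Bcl11b replicate 1, 2 or 4, and the detection filter at 0.01 on at least 4 arrays removed the probe. Slc17a8 was chosen after its value was seen. The lysosomal cystine exporter Ctns had log2 signals of 9.30, 9.06, 9.67 and 9.61 on mock and 8.77, 8.81, 8.41 and 8.79 on Bcl11b arrays. The groups were apart, but the log2 fold change of -0.72 did not pass (standard error 0.17, limma adjusted p = 0.195). The lysosomal carrier Pqlc2 had a log2 fold change of -0.56 (limma adjusted p = 0.527). In the list of amino acid sensing by mTORC1, 0 of 28 probes passed either threshold, and the smallest p-values belonged to the leucine sensor Sesn2, with a log2 fold change of 0.79 (limma adjusted p = 0.492), and to Tsc2 (ILMN_1214823), with -0.36 (limma adjusted p = 0.500).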

How the data were processed

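Gene expression in STHdh cells was measured on 8 Illumina MouseRef-8 v2 arrays, 4 per group, grouped by their titles. The authors deposited an intensity for each probe and array, the mean bead signal exported from GenomeStudio (named in the submitters' processing notes) after background subtraction and without normalization between arrays. They also deposited a detection p-value per probe and array. No signal was identical on any 2 arrays.

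Signals were quantile-normalized, raised to a lower limit of 1, put on the log2 scale and compared with lmFit and eBayes of limma (version 3.58.1, R 4.3.3) over all 25697 probes without covariates. The Benjamini-Hochberg adjustment covered all probes. The main threshold was an adjusted p of 0.10, and the less strict one an unadjusted p of 0.05 with 25% between the groups. The steps were run on simulated data with noise drawn independently for each probe and array. Such data lack the patterns that probes of an array share and the brightness difference between the groups, so the run checks the code only. For a probe detected in 1 group only, the change is a bound, set by the lowest detected signals of the other group. Bright probes are less affected by the lower limit than dim ones, and precision is limited by how few arrays there were.

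The members and gene lists were chosen with earlier results of these data known. Described carriers are the probes detected on at least 4 arrays. Per-array values are given for those past a threshold or with groups apart and for the 6 brightest. From each list, probes past the adjusted threshold or otherwise the 2 with the smallest p-values are named, and values outside this rule were chosen after they were seen. Genes were matched by symbol or by an older symbol unique in RefSeq GRCm38.p6. Alternatives were arrayWeights, limma-trend, the replicate number as a block, neqc, no normalization, division by the median of an array, addition of 16 to each signal, filters at detection p-values of 0.01 and 0.05 (4 or more arrays) and leaving out each array. The ChIP-seq and PCR data of the study were not analysed here.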

Additional observations from a re-analysis of the deposited data

Results flagged for a closer look

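In 30 groups of 4 arrays, 15 carrier probes by 2 groups, 1 value stood far from the others, where chance gives about 1 in 20. It was the Slc6a8 signal on Bcl11b replicate 4, at a log2 signal of 12.003 against 11.43 to 11.49 on the other Bcl11b arrays. The cause was not tested.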

How the results depend on the processing

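The count of carrier probes past the adjusted threshold, 1 as reported, was 0 without normalization between arrays, with division by the array median, with the replicate block and with limma-trend, and between 0 and 2 with each array left out. Past the less strict threshold there were 6, and 14 without normalization (all lower, with the median of all probes at -0.49), 3 with either detection filter (which removes the undetected probes) and between 2 and 7 with each array left out. Over all probes the adjusted count of 252 became 57 without normalization, 146 with division by the median, 413 with neqc, 45 with the replicate block, 45 with limma-trend and 642 with arrayWeights, and lay between 87 and 637 with each array left out, the highest without mock replicate 2. The count of 3 in the amino acid handling lists became 0 without normalization and 1 with the filter at 0.01, the replicate block or limma-trend, and lay between 1 and 4 with each array left out. At a detection limit of 0.05, 14 carrier probes in place of 13 were detected on all arrays.

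Of 255 values of the 15 described probes under 17 alternatives, 223 kept their direction and side of an unadjusted 0.05, 8 lost it, 13 gained it and 11 changed direction. Without normalization Slc1a4 turned to -0.62, Slc38a4 to -0.45 and Slc7a3 to -0.40, of which -0.13, 0.044 and 0.091 remain relative to the median of all probes. Division by the array median turned Slc6a6 to 0.24 and Slc7a5 to 0.16. Slc6a17 turned to 0.14 with arrayWeights, 0.041 without mock replicate 1 and 0.12 without Bcl11b replicate 4, and Slc7a6os to 0.21, 0.093 and 0.14 in the same settings. With each array left out they lay between -0.12 and 0.12 and between -0.36 and 0.14. The causes were not tested.

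Replicate numbers matched the arrays only in part. Deviations from the group means over probes detected on all arrays correlated at 0.68, -0.63, 0.18 and 0.70 for numbers 1 to 4. The values for numbers 1 and 4 were the highest of all mock and Bcl11b combinations. By contrast, mock replicate 2 correlated best with Bcl11b replicate 4 (0.56), and mock replicate 3 with Bcl11b replicate 1 (0.46). As the match was partial, the replicate block was kept as an alternative only. With the block Slc6a9 stayed at -0.66, its standard error fell from 0.074 to 0.046, and its adjusted p from limma was 0.124. Of the 15 described probes Slc1a3, near background, had the widest 95% interval (-2.03 to 0.70).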

Other observations

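Carriers of the same families that the array lists under older symbols were outside the rule. There were 13 such probes for 9 genes, and 2 of them were detected. Slc38a10 (listed as 1810073N04Rik) was detected on all 8 arrays, and its log2 signal averaged 7.27 ± 0.39 (SD, n = 4 arrays) in mock and 7.04 ± 0.25 (SD, n = 4) in Bcl11b-transfected cells. Its log2 fold change was -0.23 (limma adjusted p = 0.807). Slc38a9, a lysosomal arginine sensor of the mTORC1 pathway (listed as 9130023D20Rik, ILMN_1242435), was detected on 7 arrays, with a log2 fold change of -0.0087 (limma adjusted p = 1). None of the 13 probes passed the adjusted threshold.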
